A study of Oreochromis niloticus with 12 samples.

Results

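Transcript levels of smyd1a, unc45b and tmem182a were examined in fast muscle of Nile tilapia (Oreochromis niloticus). The 3 genes were chosen by their GeneIDs (100691245, 100694885 and 100694088) among the 42609 genes of the count tables, and the counts of all annotated transcripts of a gene were added. The libraries came from 6 females of the first generation under domestication, written D here, and from 6 wild females, written W, all 5 months old. No genetic alteration or agent is named for either group, and every domesticated fish is matched with the wild progenitor of the same number (53, 63, 66, 68, 70 or 72). Total RNA was depleted of ribosomal RNA, made into strand-specific libraries and sequenced on one lane, with 1 library per numbered fish.

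The thick filaments of a fast fibre are built from myosin, whose motor domain does not fold without help. Unc45b is the myosin chaperone of striated muscle: it holds the myosin head through one domain and recruits the heat shock protein Hsp90 through another. Smyd1 is a lysine methyltransferase of heart and skeletal muscle, and in zebrafish, which has the duplicates smyd1a and smyd1b, loss of Smyd1 activity disturbs the assembly of myosin into thick filaments. Tmem182 is a membrane protein of muscle that in mouse and chicken binds the beta 1 integrin and restrains the fusion of myoblasts.

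On the assembly O_niloticus_UMD_NMBU smyd1a lies on linkage group LG7 from 34988403 to 34995128, with 1 annotated transcript. Gene unc45b lies on LG12 from 17156288 to 17163744, with 2 annotated transcripts. Gene tmem182a lies on LG16 from 20896869 to 20903832, with 1 annotated transcript. No annotated gene overlapped any of the 3 (0). The gene nearest to smyd1a, dqx1, lies 239 bases away, and whether reads of neighbours beyond their annotated ends entered the counts was not tested. Genes with several annotated transcripts hold few counts in these tables, and 94.28% of all gene counts fell on coding genes with 1 annotated transcript. Of these, 44.86% had a mean of at least 10 counts per library, against 7.49% of coding genes with 2 transcripts and 6.72% of those with more. Gene unc45b had 515 counts in all 12 libraries, against 89655 for smyd1a and 19640 for tmem182a, and these totals do not measure its abundance relative to the other members. The muscle paralog smyd1b has 5 annotated transcripts and only 2 counts, so that nothing can be said about its level.

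The libraries held 4312367 to 8478988 gene counts in domesticated fish and 3395622 to 8472454 in wild fish. Levels are given in CPM, counts per 1000000 gene counts of the library, where the library total was scaled by the trimmed mean of M-values (TMM), and differences as the log2 of domesticated over wild with a pseudocount of 0.5. The TMM factors, which make up for unequal shares taken by the most abundant genes, were 0.614 to 1.288 in domesticated and 0.678 to 1.806 in wild libraries. The wild libraries W66 and W70 stood apart with the highest factors (1.625 and 1.806). The 10 most abundant genes, here the same set for every library, were those with the most counts summed over all libraries. This set took only 29.55% of counts in W66 and 34.08% in W70, against 40.29% to 51.78% in the others. W66 and W70 also had the highest shares of reads outside annotated features, 14.34% and 19.45%. Fast muscle markers were abundant in every library: the 22 annotated ones summed to between 199000 and 488000 CPM in domesticated and between 80700 and 455000 CPM in wild fish.

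Across all genes, limma with Benjamini-Hochberg adjustment called 1112 of 8425 tested genes at 0.05, that is 13.2%, with 6.69% higher and 6.5% lower in domesticated fish. All 3 members passed the filter on low counts, and 0 of the 3 were called, against that background of 13.2%. One member, unc45b, had an unadjusted p under 0.05, and limma with voom weights also called 0. The number of genes called over the whole table was 311 without W66 and W70.

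Gene smyd1a took many counts in every fish, and its levels in the 2 groups overlapped widely. Its mean log2 CPM, which is not corrected for transcript length, stood above that of 99.3% of the tested genes. In domesticated fish it ranged from 615 CPM in D68 to 1732 CPM in D63, with a median of 1018 CPM. In wild fish it ranged from 496 CPM in W70 to 2081 CPM in W63, with a median of 1467 CPM. Both fish of pair 63 were thus the highest of their group with TMM-scaled totals. The 2 lowest libraries of all were W66 (502 CPM) and W70 (496 CPM), the same that stood apart in composition, while the other 4 wild libraries lay between 1364 and 2081 CPM. The means were 1111 ± 424 CPM in domesticated and 1289 ± 655 CPM in wild fish (SD, n = 6 each). The log2 difference was −0.09 (SE 0.41, limma adjusted p = 0.909, exact permutation p = 0.833), with a 95% interval of the fold from 0.512 to 1.72. The level was higher in domesticated fish in 2 of 6 pairs and lower in 4. A difference of the group means was not detectable, and the interval leaves room for a change in either direction. Between single fish the levels spanned 4.19 times, whereas the counting error of a library was small, as for D68, whose 2772 counts allow 592 to 638 CPM. The order of the fish depended on the scaling. With plain totals, not scaled by TMM, D53 (1127 CPM) and W53 (1976 CPM) were the highest of their groups. The lowest of all was then D68 (643 CPM).

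Gene tmem182a was the steadiest of the 3 between fish. It ranged from 197 CPM in D68 to 371 CPM in D63, with a median of 320 CPM, in domesticated fish. In wild fish it ranged from 125 CPM in W70 to 339 CPM in W63, with a median of 226 CPM. With TMM-scaled totals pair 63 again held the highest library of each group, and W70 again the lowest of all. The means were 303 ± 66.9 CPM in domesticated and 229 ± 68.4 CPM in wild fish (SD, n = 6 each), a log2 difference of 0.43 (SE 0.26, limma adjusted p = 0.294). The level was higher in the domesticated fish of 5 of 6 pairs, with pair 68 as the exception, and the 95% interval of the fold ran from 0.913 to 1.98. Neither the exact permutation test over all 924 splits (p = 0.0952) nor the exact sign-flip test over the pairs (p = 0.0938) passed 0.05. The SD of the log2 level was 0.35 in domesticated and 0.47 in wild fish, below the medians of 0.49 and 0.57 for 161 genes of like level. With plain totals D53 (370 CPM) and W66 (358 CPM) were the highest of their groups, and W68 (198 CPM) was the lowest of all.

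Gene unc45b was low in every domesticated fish and uneven among the wild ones. It ranged from 1.26 CPM in D66 to 4.08 CPM in D70, with a median of 2.44 CPM, in domesticated fish. In wild fish it ranged from 0.846 CPM in W53 to 24.7 CPM in W70, with a median of 5.79 CPM. Libraries W63 (18.6 CPM) and W70 lay far above all others, W66, W68 and W72 between 4.50 and 5.89 CPM, and W53 below every domesticated fish. With plain totals W63 had 12.5 CPM, near the 9.42 CPM of W66, and W53 (0.971 CPM) lay above D66 (0.826 CPM). The library totals of unc45b counts were 7 to 26 in domesticated and 6 to 211 in wild fish, so single values carry wide counting intervals, from 0.506 to 2.59 CPM for D66 and from 21.5 to 28.3 CPM for W70. The means were 2.58 ± 0.915 CPM in domesticated and 10.03 ± 9.37 CPM in wild fish (SD, n = 6 each). The log2 difference of unc45b was −1.33 (SE 0.62, limma adjusted p = 0.166, unadjusted 0.0491), and the exact permutation test over all splits gave p = 0.115. The level was lower in domesticated fish in 5 of 6 pairs, and the reverse pair was 53 (1.70 on the log2 scale). The result turned on W53: without that library the log2 difference was −1.88 with a limma adjusted p of 0.0196. Because W53 was the library that went against the difference, this value is no added support. With any other single library left out the limma adjusted p was 0.186 to 0.328.

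What set unc45b apart was its spread among wild fish. The highest wild library held 29.2 times the level of the lowest, against 3.24 times among domesticated fish. Without W53, which had 6 counts, the ratio among wild fish was 5.50. The SD of the log2 level was 0.53 in domesticated and 1.69 in wild fish, or 1.11 in wild fish without W53. Among 1622 genes, unc45b included, with a mean log2 level within 0.5 of that of unc45b, 97.8% had a lower SD in wild fish and 42.0% a lower one in domesticated fish. Without W53 92.8% had a lower SD in wild fish. These percentages are a description, because genes of one library are not independent.

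**Figure D1:**
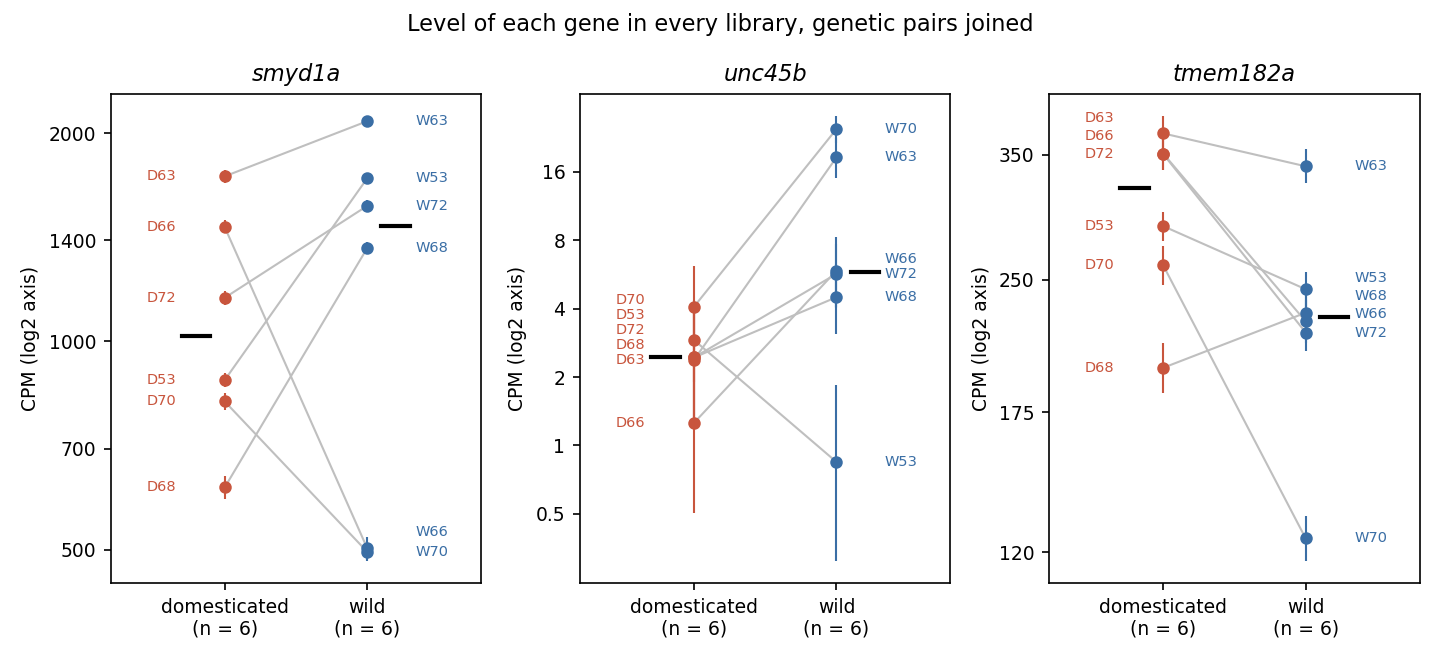
Level of smyd1a, unc45b and tmem182a (CPM, log2 axis) in each of 6 domesticated (left) and 6 wild (right) libraries, with the exact 95% counting interval as a vertical bar, the group median as a short black line and grey lines joining genetic pairs. With TMM-scaled totals the groups overlap for all 3 genes, W66 and W70 are the lowest for smyd1a, and wild unc45b spreads from 0.846 to 24.7 CPM.

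The sizes of the members' differences, though not their signs, moved with the scaling of the libraries. With plain library totals the median log2 difference of all genes moved to −0.42, from −0.02 with TMM, and with totals that leave out the 10 most abundant genes it moved to −0.34. Of the genes called, 12.8% and 15.7% were then higher in domesticated fish, in place of 50.7%. With plain totals the log2 difference was −0.50 for smyd1a, −1.73 for unc45b and 0.02 for tmem182a. Relative to the median of all genes these are −0.08, −1.31 and 0.45, against −0.08, −1.31 and 0.45 with TMM. This equality is fixed in advance and is no result about the members, because a change of scaling moves the log2 differences of all genes by the same amount. None of the 3 was called with either kind of totals.

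Ratios between the members do not depend on the scaling, since both counts come from the same library. The smyd1a counts were 3.05 (D53) to 4.68 (D63) times the tmem182a counts in domesticated fish, with a median of 3.22. In wild fish they were 2.25 (W66) to 7.24 (W72) times the tmem182a counts, with a median of 6.05. The 4 wild libraries W53, W63, W68 and W72 lay above every domesticated library (5.97 to 7.24), W70 lay among the domesticated ones at 3.98, and W66 below them all. The log2 ratio was lower by 0.52 in domesticated fish, with SDs of 0.26 and 0.65 in domesticated and wild fish (exact permutation p = 0.0996, 0.149 after adjustment over 3 ratios). This depended on W66: the difference was −0.75 without it (exact permutation p = 0.0108) and −0.90 without W66 and W70 (exact permutation p = 0.00476). As W66 and W70 were the wild libraries not above all domesticated ones, these p-values are no added support. With any other single library left out the exact permutation p was 0.0779 to 0.19. The ratio was lower in the domesticated fish of 5 of 6 pairs.

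The ratio of unc45b to tmem182a had a median of 0.00853 in domesticated and of 0.0263 in wild fish. Its log2 difference was −1.75 (exact permutation p = 0.0584, adjusted 0.149). The other 5 wild libraries lay above all domesticated ones, whereas W53, at 0.00347, lay just below the lowest of them, D66 at 0.00358. Without W53 the groups no longer overlapped and the difference was −2.34 (exact permutation p = 0.00216, the smallest that 6 against 5 libraries can give). That p is fixed by leaving out the only wild library that overlapped and is no added support. With any other single library left out the exact permutation p was 0.0563 to 0.117. The ratio of unc45b to smyd1a had a median of 0.00271 in domesticated and 0.00627 in wild fish, a log2 difference of −1.23 (exact permutation p = 0.242), or −1.92 without W53 (exact permutation p = 0.0325). Here too W53 was the wild library that went against the difference, and the other single omissions gave an exact permutation p of 0.212 to 0.478. A ratio of counts of different genes has no meaning as a ratio of abundances here, because transcript length and the number of transcripts enter it. Only its difference between fish can be read. For the ratios with unc45b even this difference cannot be told apart from a change in the shares of its transcripts, described below. How reads shared by transcripts were counted is not known.

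**Figure D2:**
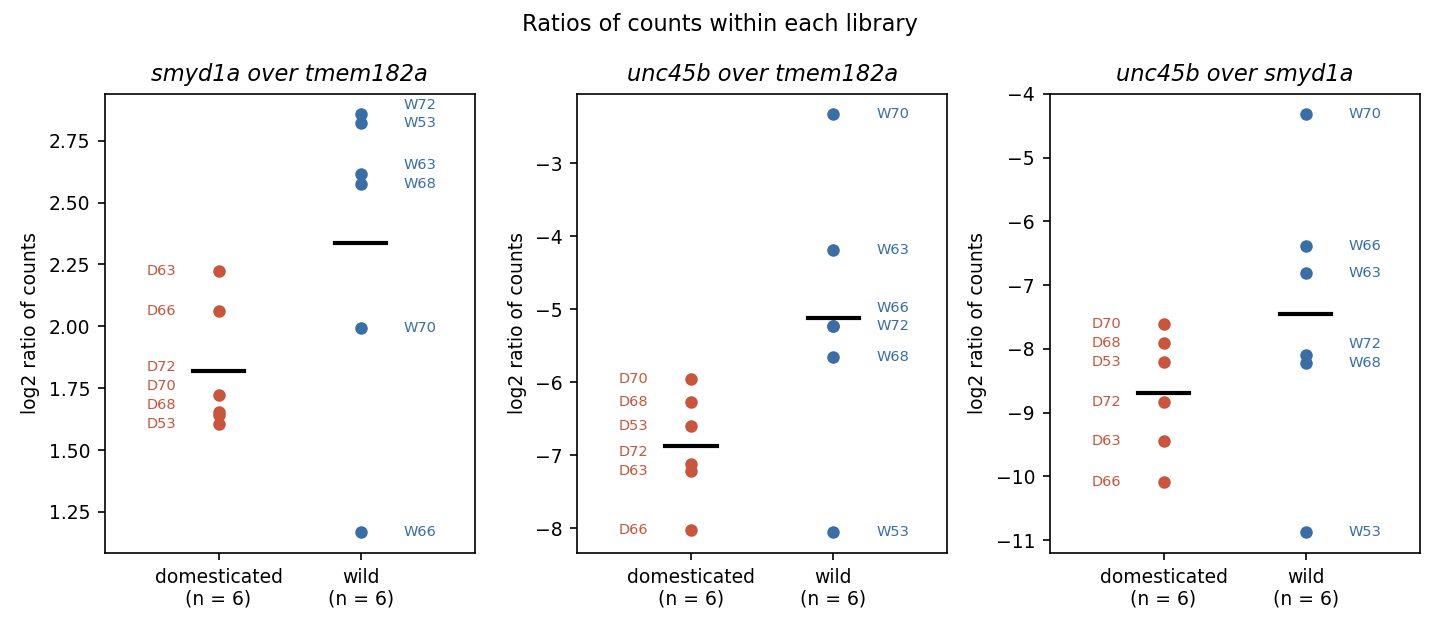
Log2 ratios of counts within each library for the 3 pairs of genes, domesticated left and wild right (n = 6 each), with the mean as a black line. For smyd1a over tmem182a 4 wild libraries lie above all domesticated ones and W66 below them, and for unc45b over tmem182a 5 wild libraries lie above all domesticated ones and W53 just below them.

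Levels of smyd1a and tmem182a varied together between fish. After removal of the group means Pearson's r of the log2 levels was 0.801 over 12 libraries (100000 permutations within groups, p = 0.00026, 0.00234 after adjustment over 9 relations) and Spearman's rho 0.818 (permutation p = 0.00074, adjusted 0.00666). Without the 2 libraries farthest from the median of smyd1a r was 0.904. Within domesticated fish r was 0.942 (exact permutation p = 0.00417, adjusted 0.0188) and rho 1.00 (exact permutation p = 0.00278, adjusted 0.0125), so that the order of the 6 fish was the same for both genes. Within wild fish r was 0.743 (exact permutation p = 0.0375, adjusted 0.112) and rho 0.829 (exact permutation p = 0.0583, adjusted 0.175). Without the 2 farthest libraries r was 0.920 in domesticated and 0.874 in wild fish.

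This relation depended on the scaling. With plain totals r after removal of the group means was 0.114 (permutation p = 0.746), with 0.629 in domesticated and −0.17 in wild fish (exact permutation p = 0.188 and 0.786). With totals that leave out the 10 most abundant genes it was 0.437 (permutation p = 0.161). Apart from scaling, with TMM and the pair means removed in addition to the group means, it was 0.705 (permutation p = 0.119). Both genes share the scaling factor of their library. With group means removed, 111 other tested genes had a higher r with smyd1a than tmem182a had.

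**Figure D3:**
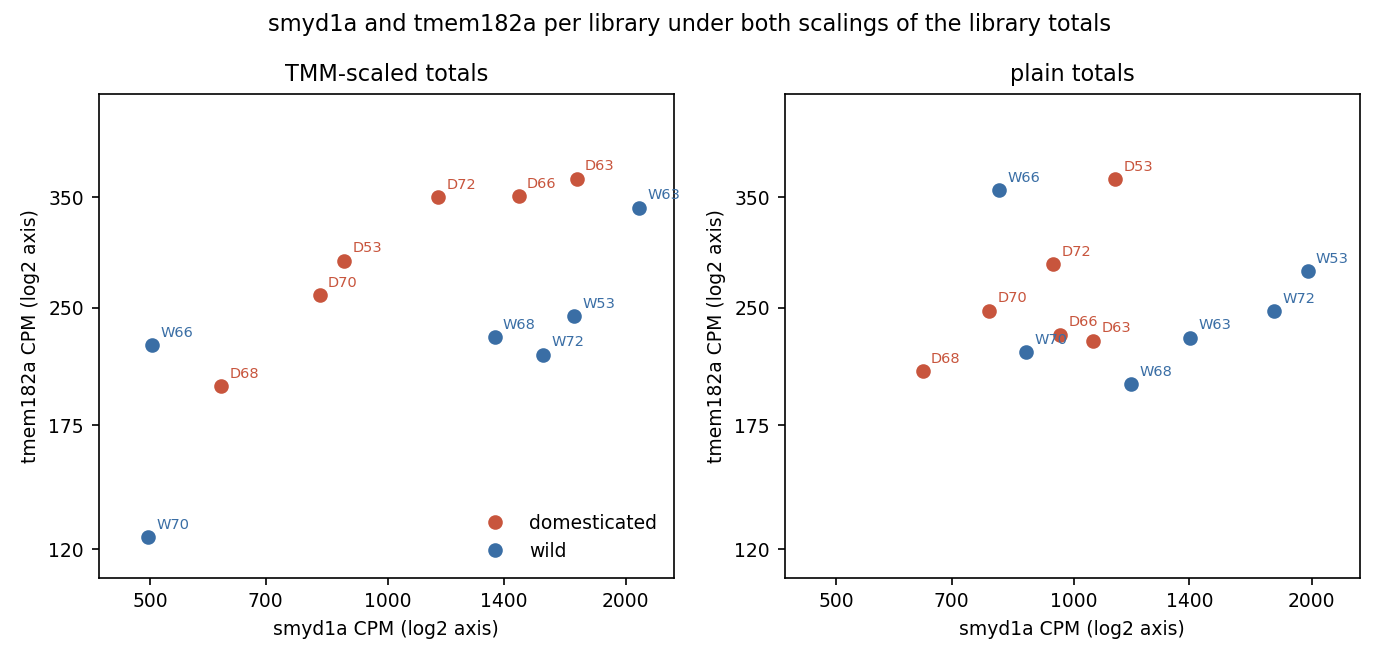
Level of tmem182a (CPM, log2 axis) against that of smyd1a (CPM, log2 axis) in 6 domesticated and 6 wild libraries, with TMM-scaled totals (left) and plain totals (right). The domesticated libraries follow one line on the left, where r is 0.942, and scatter on the right, where it is 0.629.

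No relation of unc45b with the other members passed the test over all libraries. Its r with smyd1a was −0.371 after removal of the group means (permutation p = 0.36, adjusted 0.537, rho −0.371 with permutation p = 0.305), −0.528 in domesticated and −0.354 in wild fish. Its r with tmem182a was −0.283 (permutation p = 0.477, adjusted 0.537, rho −0.371 with permutation p = 0.255), −0.416 in domesticated and −0.273 in wild fish. Within domesticated fish rho was −0.771 for both relations (exact permutation p = 0.103, adjusted 0.185), and within wild fish −0.371 for both (exact permutation p = 0.497). Without the 2 libraries farthest from the median of smyd1a, its r with unc45b was −0.061 over all libraries, −0.957 in domesticated and 0.375 in wild fish. Without the 2 farthest for unc45b, its r with tmem182a was 0.225, −0.142 and 0.962. No test was run on these values within groups. With TMM-scaled totals W70 had the highest unc45b level together with the lowest smyd1a and tmem182a levels. Without it the r of unc45b with tmem182a was 0.15. Without W63, which with these totals was high for all 3 genes, both relations had an r of −0.66 (permutation p = 0.0259 with smyd1a and 0.0456 with tmem182a).

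Features of the libraries moved with smyd1a. After removal of the group means its log2 level had an r of −0.880 with the share of reads outside annotated features (rho −0.888, permutation p = 0.00036 and 0.00157, adjusted over 12 relations 0.0036) and of 0.924 with the share of the 10 most abundant genes (rho 0.881, permutation p = 0.0006 and 0.00183, adjusted 0.0036). Without the 2 farthest libraries these were −0.841 and 0.782. The r of smyd1a was −0.859 with the log2 TMM factor (rho −0.839, permutation p = 0.00166 and 0.00267, adjusted 0.00664) and 0.835 with the total of gene counts (rho 0.713, permutation p = 0.00252 and 0.0231, adjusted 0.00756), and −0.787 and 0.712 without the 2 farthest libraries. The TMM factor is itself part of each level. For tmem182a the r with the share outside features and with the share of the 10 most abundant genes were −0.831 (rho −0.734, permutation p = 0.00457 and 0.00539, adjusted 0.011) and 0.662 (rho 0.692, permutation p = 0.0301 and 0.0126, adjusted 0.0451), and −0.423 and 0.756 without the 2 farthest libraries. With the TMM factor the r of tmem182a was −0.773 (rho −0.860, permutation p = 0.00647 and 0.00178, adjusted 0.0129) and with the total 0.670 (rho 0.720, permutation p = 0.0271 and 0.0113, adjusted 0.0451), and −0.576 and 0.766 without the 2 farthest libraries. For unc45b the r with the shares outside features and of the 10 most abundant genes were 0.628 (rho 0.545, permutation p = 0.0972 and 0.093, adjusted 0.13) and −0.120 (rho −0.245, permutation p = 0.802 and 0.507, adjusted 0.802), and 0.491 and 0.377 without the 2 farthest libraries. Those of unc45b with the TMM factor and the total were 0.134 and −0.133 (rho 0.308 and −0.217, permutation p = 0.74 and 0.744 for r and 0.379 and 0.556 for rho, both adjusted to 0.802), and 0.287 and −0.219 without the 2 farthest libraries. The part of library composition in the levels was not tested, and a level per gene cannot tell fewer muscle fibres in a piece of tissue from less RNA per fibre.

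The genes with the patterns most like those of the members were found by Pearson's r of the log2 levels over the 12 libraries, among tested genes with a symbol. For smyd1a they were uhmk1 (0.958), gamt (0.953), npm1b (0.941), hjv (0.902) and sypl2a (0.891). Gene gamt makes creatine from guanidinoacetate, and sypl2a encodes a protein of the triad membranes. With plain totals these 5 still had an r of 0.720 to 0.912 with smyd1a, against 0.075 for tmem182a.

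For tmem182a the closest genes were myoz1a (0.967), ptrhd1 (0.938), cops9 (0.932), prkaa2 (0.914) and clic5a (0.914). Gene myoz1a encodes a protein of the Z-disc of fast fibres and prkaa2 a catalytic subunit of the energy sensor AMPK. With plain totals their r with tmem182a was 0.545 to 0.811, while the median r of all tested genes with it was 0.298, against −0.045 with TMM.

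For unc45b the closest genes included rftn1b (0.902), arih1 (0.861), cd83 (0.850) and ksr1a (0.848). Gene cd83 encodes a surface protein of activated immune cells, which is no component of the sarcomere. Without W70 and W63, the 2 libraries farthest from the median of unc45b, the r of these 4 was 0.634 to 0.864, and with plain totals 0.889 to 0.917. Plain totals also raised the median r of all tested genes with unc45b, to 0.381 from −0.003 with TMM. Of the leukocyte markers 0 of 10 tested were called higher and 2 lower in domesticated fish, against 6.69% and 6.5% of all tested genes. Log2 differences below 0 were found for 4308 of all 8425 tested genes and for 8 of these 10 markers, whose median was −0.80. The 19 annotated ones summed to between 1400 and 4680 CPM in domesticated and between 995 and 2740 CPM in wild fish, and this sum was carried by lcp1, with means of 2430 CPM in domesticated and 1280 CPM in wild fish and no call. Their part in the levels of unc45b was not tested.

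The few unc45b counts lay on its annotated transcripts in different proportions in the groups, a measure added after the data were seen. Transcript XM_005473240.3 held 0.0% to 26.9% of the unc45b counts in domesticated fish, with a median of 6.8%, and 21.9% to 43.1% in wild fish, with a median of 33.7%. It had no count in D66 (0 of 7) and D72 (0 of 14), which at 3 counts of the total allows shares of up to 42.9% and 21.4%, with exact 95% binomial upper limits of 41.0% and 23.2%. The only overlap was between D53 at 26.9% and W66 at 21.9%. Pooled over libraries it held 11 of 91 counts (12.1%) in domesticated and 159 of 424 counts (37.5%) in wild fish. The share averaged 9.8% ± 10.8 over the 6 domesticated libraries and 34.3% ± 7.9 over the 6 wild ones (SD), a difference of −24.5 percentage points (exact permutation p = 0.00433). The share was lower in the domesticated fish of 6 of 6 pairs, with an exact sign-flip p of 0.0312, the smallest that 6 pairs can give.

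Among all 234 genes with 2 annotated transcripts and at least 5 counts in every library, 8.97% had an exact permutation p under 0.05 for the same share, and 4 genes had a p as small as that of unc45b. After adjustment over these genes 0 were called by the exact permutation test (21 before adjustment), and the adjusted p of unc45b was 0.253. On the log2 CPM scale XM_005473240.3 differed by −3.08 between the groups (exact permutation p = 0.00649, exact sign-flip p over the pairs 0.0625) and the other transcript, XM_003451765.5, by −0.88 (exact permutation p = 0.238). Whether reads that fit both transcripts entered these counts is not known. If they did not, a change of the shares could also move the summed unc45b counts, which was not tested.

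**Figure D4:**
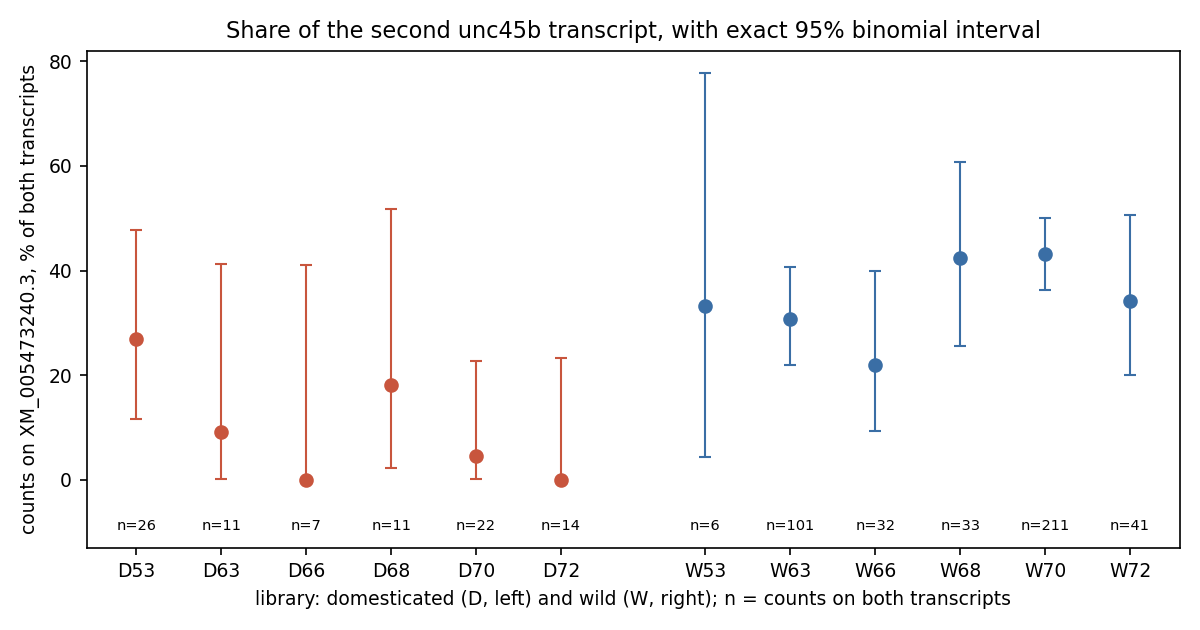
Share of unc45b counts on transcript XM_005473240.3 (percent of the counts on both transcripts) in each domesticated (left) and wild (right) library, with exact 95% binomial intervals and the number of counts under each point. Domesticated libraries lie between 0.0% and 26.9% and wild ones between 21.9% and 43.1%, on 7 to 26 and 6 to 211 counts.

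Partners of the myosin chaperones were compared next, to set the members among the genes they work with. This and the following gene lists were made with earlier results of these data known. Their shares of calls are therefore descriptions and cannot show an enrichment. Of 27 annotated myosin chaperones and partners 21 were tested, 2 were called higher and 2 lower in domesticated fish (19.0%, against 13.2% of all tested genes), and their median log2 difference was 0.05, against −0.02 for all tested genes. Without W66 and W70 the counts were 0 higher and 1 lower. The most stable call was hsp90aa1.2, an Hsp90 gene that in zebrafish responds to stress: it averaged 13.3 ± 2.0 CPM in domesticated and 116 ± 110 CPM in wild fish, a log2 difference of −2.49 (SE 0.56, limma adjusted p = 0.0129), called under 23 of 23 alternatives. Gene hsp90aa1.1, the Hsp90 gene that zebrafish muscle uses for myosin folding, had a log2 difference of 0.59 and was not called (limma adjusted p = 0.483). The third one, hsp90ab1, had −0.53 (limma adjusted p = 0.212).

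Among the tested paralogs of the members only smyd2a was called. Gene smyd2a, a methyltransferase of the same family that in mammals acts on Hsp90 and binds titin, rose to 125 ± 62.2 CPM in domesticated fish, against 30.0 ± 26.5 CPM in wild fish (SD, n = 6 each). Its log2 difference was 2.24 (SE 0.45, limma adjusted p = 0.00817), and it was called under 22 of 23 alternatives, the exception being the fit without W66 and W70 (1.90, limma adjusted p = 0.0606). Gene smyd5 had −0.73 (limma adjusted p = 0.349). Gene unc45a, the form of the chaperone found outside muscle as well, averaged 6.77 ± 2.33 CPM in domesticated and 6.65 ± 4.00 CPM in wild fish (SD, n = 6 each), with a log2 difference of 0.10 (limma adjusted p = 0.873) that turned negative with plain totals (−0.30). The differences of these paralogs were not set against those of the members in a test.

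The other chaperone calls were less stable. Gene fkbp5, a co-chaperone of Hsp90 at steroid receptors, had 280 ± 321 CPM in domesticated and 802 ± 340 CPM in wild fish (SD, n = 6 each), a log2 difference of −1.85 (SE 0.53, limma adjusted p = 0.0339) that was called under 11 of 23 alternatives. Gene apobec2b, whose protein in zebrafish interacts with Unc45b, had 156 ± 24.0 CPM in domesticated and 90.7 ± 30.4 CPM in wild fish (SD, n = 6 each). Its log2 difference of 0.84 (SE 0.26, limma adjusted p = 0.0429) was called under 9 of 23 alternatives and was not called with the replicate block (limma adjusted p = 0.0679). The remaining 17 tested genes of the list, 2 of them members, were not called. Their log2 differences ran from −1.33 (unc45b) and −0.83 (hspb1) to 0.73 (ptges3a).

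**Figure D5:**
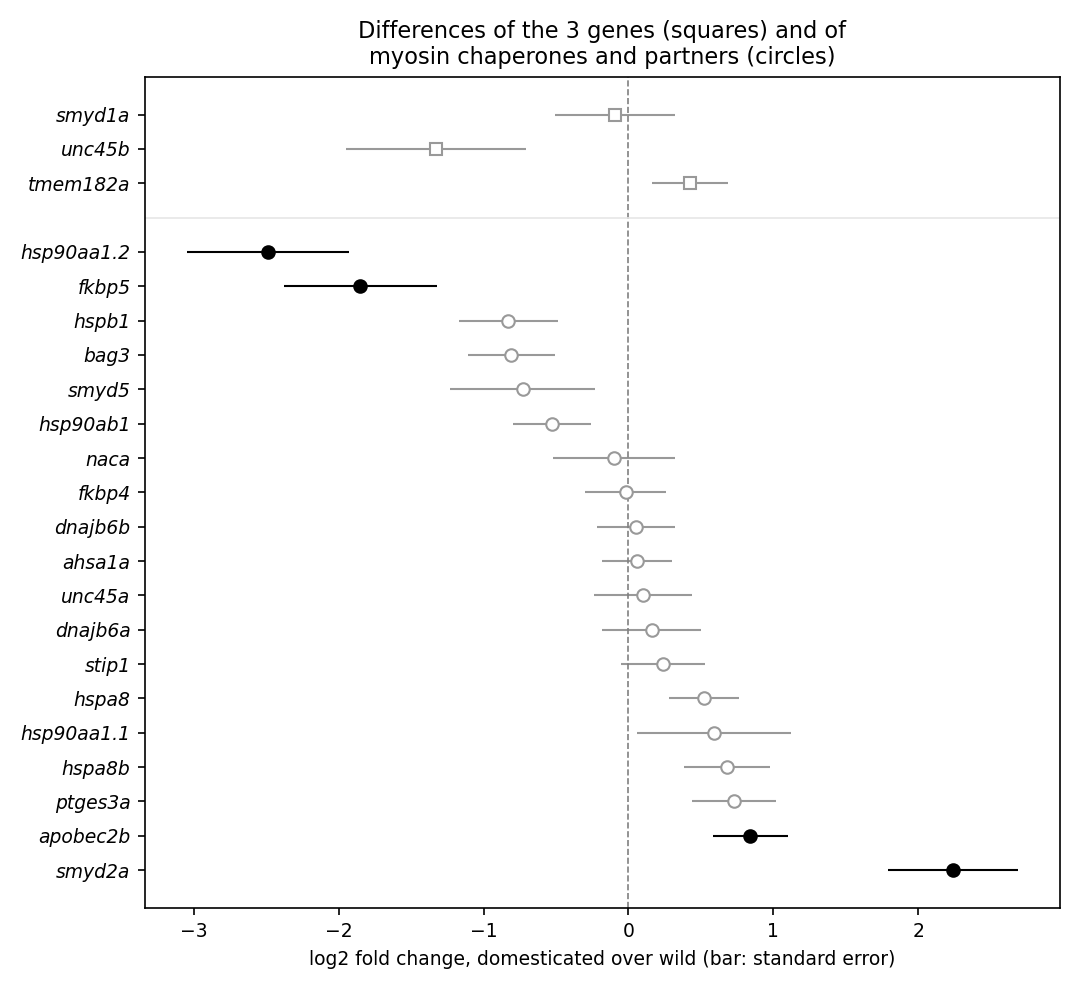
Log2 fold change of domesticated over wild with its standard error for the 3 genes (squares) and the other tested myosin chaperones and partners (circles), filled black where the limma adjusted p is under 0.05. Calls are hsp90aa1.2 (−2.49), fkbp5 (−1.85), apobec2b (0.84) and smyd2a (2.24), and none of the squares is filled.

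The tested genes of the thick filament, the structure that Unc45b and Smyd1 serve, were not called over all 12 libraries. The list held myosin light chains but no gene of the myosin heavy chain, so the level of the heavy chain was not examined. Of 28 annotated genes of the thick filament and M line 14 were tested, with 0 called by limma in either direction, against 13.2% of all tested genes. A list of 14 tested genes is too short to tell 0 calls from that share. Its median log2 difference was 0.50, which was 0.09 with plain totals and 0.08 without W66 and W70. Without these libraries 15 were tested and 1 was called higher. An unadjusted p under 0.05 was found for 2 of them, myom1b (1.27, limma adjusted p = 0.0799) and obscna (−1.62, limma adjusted p = 0.0703). Of 12 annotated genes of myosin turnover 8 were tested, and only fbxo32, the ubiquitin ligase atrogin-1, was called (12.5%, near the 13.2% of all tested genes). It was lower (−2.57, limma adjusted p = 0.0495) and was called under 7 of 23 alternatives.

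More calls fell on the list of the myofibre membrane, to which tmem182a belongs, and this too is only a description. Of 45 annotated genes of the myofibre membrane 27 were tested, 5 were called higher (18.5%, against 6.69% of all tested genes) and 1 lower, with a median log2 difference of 0.44. With plain totals 1 was called higher and 1 lower, with a median of 0.04, and without W66 and W70 1 was higher and 0 were lower. The calls of cavin1b and sgcb stood under 22 of 23 alternatives. Gene cavin1b, a coat protein of caveolae, averaged 263 ± 71.4 CPM in domesticated and 98.8 ± 16.5 CPM in wild fish, a log2 difference of 1.37 (SE 0.25, limma adjusted p = 0.00462) that was not called with plain totals (0.97, limma adjusted p = 0.0619). Gene sgcb, the beta subunit of the sarcoglycan complex, averaged 173 ± 38.9 CPM in domesticated and 69.2 ± 34.9 CPM in wild fish, a log2 difference of 1.41 (SE 0.28, limma adjusted p = 0.00762) that was not called without W66 and W70 (limma adjusted p = 0.0518). The others included sspn (1.46), cavin4b (0.98) and, outside the rule for naming genes and named after its value was seen, the lower one, sntb1 (−1.35). The value of 0.43 for tmem182a, which is itself 1 of the 27 tested genes, lay close to the median of this list.

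Partners of Tmem182 at integrins and in fusion were compared as well. Of 29 annotated genes of integrin adhesion 10 were tested and 1 was called higher (10%, against 6.69% of all tested genes), itgb1bp1, whose protein binds the tail of the beta 1 integrin. It averaged 43.0 ± 14.9 CPM in domesticated and 9.02 ± 7.10 CPM in wild fish, a log2 difference of 2.47 (SE 0.45, limma adjusted p = 0.0051), and was called under 23 of 23 alternatives. The gene of the beta 1 integrin itself, itgb1a, has 3 annotated transcripts and 1 count. Of 22 annotated genes of myoblast fusion 10 were tested, and rac1a (0.96, limma adjusted p = 0.0299) and elmo1 (1.17, limma adjusted p = 0.0467), which act on the actin skeleton at fusion, were called higher (20%, against the same 6.69%). They were called under 14 and 9 of 23 alternatives, and 0 genes of the list were called by limma with plain totals or without W66 and W70 (3 and 2 at an unadjusted p under 0.05). The fusion proteins themselves, mymk and mymx, have 7 and 5 annotated transcripts and no counts (0).

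Regulators of muscle genes were called at about the rate of all genes. Of 24 annotated genes 16 were tested and 2 called (12.5%, against 13.2%), with mef2aa higher (1.56, limma adjusted p = 0.045) and mrtfab lower (−1.21, limma adjusted p = 0.0415), called under 7 of 22 and 12 of 23 alternatives. The median log2 difference of this list was −0.08.

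Markers of other cells were compared beside these results, against 6.69% of all tested genes called higher. Of 5 tested slow and red fibre markers 3 were called higher, among them mb (myoglobin, 2.14, limma adjusted p = 0.018), but the log2 differences of the other 2 were below 0. The 15 annotated ones summed to between 151 and 694 CPM in domesticated and between 41.0 and 157 CPM in wild fish. Of this sum mb alone averaged 168 CPM in domesticated and 42.3 CPM in wild fish. Of 6 tested erythrocyte markers 4 were called higher, and the list summed to between 392 and 1330 CPM in domesticated and between 197 and 813 CPM in wild fish. This sum was carried by ank1a, with means of 710 CPM in domesticated and 275 CPM in wild fish. Of 17 tested fibroblast and matrix markers 2 were called higher, with sums between 6300 and 29700 CPM in domesticated and between 794 and 10700 CPM in wild fish. These sums were carried by col1a2, with means of 13200 CPM in domesticated and 3590 CPM in wild fish and no call. With plain totals 1 slow and red fibre, 2 erythrocyte and 0 fibroblast markers were called higher by limma, and without W66 and W70 1, 1 and 0 (the fibroblast list had 5 and 7 at an unadjusted p under 0.05). Of 12 tested endothelial, 7 tested skin and nerve and 19 tested fast muscle markers 0 were called by limma (4, 2 and 4 at an unadjusted p under 0.05). Of 6 tested adipocyte markers 2 were called higher, but the log2 differences of 4 were below 0, with a median of −0.46. With plain totals 1 adipocyte marker was called higher and 1 lower, and without W66 and W70 1 higher and 0 lower. The part of these cells in the levels of the 3 genes was not tested.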

How the data were processed

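RNA-seq of fast muscle from 6 domesticated and 6 wild females was used. The authors' deposited tables give raw read counts for every annotated transcript, made with Trimmomatic 0.33, STAR and HTSeq as named in the submitters' processing notes, which also name edgeR without its use. The sources used here do not give how HTSeq treated reads shared by transcripts. The tables have 80392 transcripts. Reads without a feature (11.18% on average), ambiguous (13.37%) and not unique (51.47%) stayed out of totals.

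Transcript counts were added per gene. Genes with 10 counts, scaled to library size, in 6 libraries and 15 in all were tested with limma 3.58.1 in R 4.3.3 (trend, robust estimation, condition as the only term) on log2 CPM (pseudocount 0.5, totals scaled by TMM), with Benjamini-Hochberg adjustment at 0.05. The tables could not be read as counts by the unit check in use, so no count model was run. The fitting code was tested on simulated data. Single values were tested by exact permutation over libraries (Python 3.11.15, SciPy 1.17.1). Intervals of levels and of transcript shares in single libraries cover counting error only, since reads carry no molecular identifiers. Intervals of the fold come from the limma fit and, like its p-values, rest on the variation between these libraries, moderated across genes. They do not describe the spread within a group.

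The 3 genes and the gene lists were chosen with earlier results of these data known, so the share of a list that was called cannot show an enrichment. Named are the 3 genes, their paralogs, tested chaperones, the 4 members with the smallest p of other lists, the 2 most abundant markers of each cell type list (mb for slow and red fibres) and the 5 closest genes per member, not all of which are reported here.

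The numbers pair the samples genetically per the labels. After removal of group means the paired libraries had correlations of 0.21, 0.12, 0.05, −0.10, −0.09 and 0.05 for the numbers 53, 63, 66, 68, 70 and 72, and the own pair was the closest in 1 of 6.

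Alternatives were other scalings, filters, pseudocounts and weights, thinning to 3395622 counts, the replicate block and each library left out. Leaving out W66 and W70 together and the transcript shares were added after the data were seen. No sequences were used.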

Additional observations from a re-analysis of the deposited data

How the results depend on the processing

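The number of genes called, 1112, was 680 with plain totals, 311 without W66 and W70 and 628 to 1349 with single libraries left out (628 without D70, 648 without D72, 668 without W66, 696 without W70). The log2 difference of smyd1a changed sign with no filter (0.053) and without D68 (0.10), W53 (0.04), W63 (0.10) or W72 (0.01), and ranged from −0.32 to 0.10 with 1 library left out. That of unc45b ranged from −1.88 to −0.93 and that of tmem182a from 0.26 to 0.58. Limma adjusted p ranged over all alternatives from 0.24 to 0.998 for smyd1a, from 0.0196 to 0.463 for unc45b and from 0.151 to 0.972 for tmem182a. Gene unc45b was called only without W53, and it did not pass the stricter filter of 50 counts, which gave no value. With the replicate block 1062 genes were called, and the log2 difference of unc45b was −1.33 (limma adjusted p = 0.122), so that the paired analysis changed no call of the 3 genes.

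With 1 library left out the log2 ratio of unc45b to smyd1a ranged from −1.92 to −0.61, that of unc45b to tmem182a from −2.34 to −1.20 and that of smyd1a to tmem182a from −0.75 to −0.42. The last was −0.90 without W66 and W70, and unc45b to tmem182a was −2.08 after thinning (exact permutation p = 0.0281). The correlation of smyd1a with tmem182a was 0.11 with plain totals, 0.44 with totals that leave out the 10 most abundant genes and 0.70 with the replicate block, and 0.71 to 0.95 with 1 library left out. That of smyd1a with unc45b ranged from −0.66 to −0.12. That of unc45b with tmem182a changed sign with plain totals (0.020), without W70 (0.15) and without W66 and W70 (0.17), and ranged from −0.66 to 0.15. The share of unc45b counts on XM_005473240.3 differed by −27.9 to −22.5 points with 1 library left out. The difference of unc45a changed sign with plain totals (−0.30), with totals that leave out the 10 most abundant genes (−0.22) and without D53 (−0.020), and ranged up to 0.36 with 1 library left out. The causes of these changes were not tested. The 6 to 211 counts of unc45b per library limit the precision of its single values.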
